A study of Mus musculus with 8 samples.

Results

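The regions described here were MEF sites that carried an ATAC-seq peak in mouse embryonic fibroblasts (MEFs) and at day 5 of reprogramming, and no peak at day 10 or in embryonic stem cells (ESCs). They were chosen by their peak calls. Peaks of the 4 deposited lists that lay within 400 bp of each other were merged into 101701 regions, and 1507 of these, 1.48%, had this pattern. ATAC-seq marks open chromatin by the insertion of adapters by a transposase, and a peak is a stretch where insertions pile up. The data came from 8 libraries, 2 in each of 4 groups, and each group had 1 peak list. The groups were uninfected MEFs, cultures infected with pMXs retroviruses for OCT4, SOX2, KLF4 and c-MYC (OSKM) and a FLAG control vector, taken either 5 or 10 days later, and ESCs.

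All cells were labelled wildtype, with no knockout. The infected cells were kept in ESC medium with LIF and vitamin C. The labels gave the OG2 background, which carries a GFP transgene under Oct4 control, to MEFs, to both OSKM days and to 1 ESC library, and the parent strain to the other ESC library. They place ESCs on feeder MEFs, whereas the methods give gelatin and 2i/L medium. The infected cultures were bulk populations, in which most cells do not become pluripotent, so a smaller fraction of cells with an open site and a site that is less open in each cell cannot be told apart. A region without a peak at day 10 is one in which no interval was listed. Its level at day 10 is not known.

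The label check used peaks within 50 kb of marker genes, counting a peak for each gene it lay near. Around 40 collagen and matrix genes the MEF list had 326 peaks, the day 5 list 155, the day 10 list 145 and the ESC list 137. Around 34 pluripotency genes there were 122, 95, 124 and 241 peaks in the same order. The MEF list was thus richest around fibroblast genes and the ESC list around pluripotency genes. The MEF list was also the longest, with 56514 peaks against 36219 (day 5), 35226 (day 10) and 48486 (ESCs). The read depth of the libraries is unknown, so the length of a list cannot be separated from the depth behind it.

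Fibroblast enhancers are mostly distal elements bound by AP-1 (FOS and JUN dimers), together with TEAD, RUNX and other factors that keep the somatic programme active. During reprogramming many such elements are closed. KLF4 and SOX2 bind their own short motifs in open and closed chromatin. Promoters of widely expressed genes, rich in G and C, tend to stay open through changes of cell identity.

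The windows below show what the members looked like in sequence. For the 2 motifs that differed most between members and regions that kept their peak at day 10, AP-1 and KLF, the 2 members with the highest peak ranks and a match are given. For TEAD and SOX the 1 member with the highest ranks is given, and for RUNX the highest that was not already chosen for another motif, since the second AP-1 window and the TEAD window also hold a RUNX match. Windows that were 50% or more repeat-masked were passed over. Each is 200 bp of GRCm38 (mm10), plus strand, centred on the member's widest MEF peak and outside annotated exons. Capitals mark the match to the motif named at the start of the line.
AP-1, chr8:80962208-80962407 (+): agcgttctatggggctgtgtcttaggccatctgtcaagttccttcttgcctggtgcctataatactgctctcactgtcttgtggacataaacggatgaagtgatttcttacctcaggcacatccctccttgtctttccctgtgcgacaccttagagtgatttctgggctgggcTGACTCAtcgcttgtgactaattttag
AP-1, chr15:18064207-18064406 (+): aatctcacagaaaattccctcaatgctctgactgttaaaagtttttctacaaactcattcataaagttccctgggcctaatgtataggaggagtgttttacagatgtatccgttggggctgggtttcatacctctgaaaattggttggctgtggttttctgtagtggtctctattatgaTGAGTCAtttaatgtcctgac
KLF, chr4:51168202-51168401 (+): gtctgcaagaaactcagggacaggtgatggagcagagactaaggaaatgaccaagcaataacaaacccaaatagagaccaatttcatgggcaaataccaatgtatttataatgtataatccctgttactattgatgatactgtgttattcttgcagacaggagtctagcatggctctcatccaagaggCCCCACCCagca
KLF, chrX:107150829-107151028 (+): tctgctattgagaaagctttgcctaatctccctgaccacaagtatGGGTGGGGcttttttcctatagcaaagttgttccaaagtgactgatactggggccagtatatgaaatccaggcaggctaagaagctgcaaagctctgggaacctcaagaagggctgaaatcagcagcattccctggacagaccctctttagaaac
RUNX, chr7:114710514-114710713 (+): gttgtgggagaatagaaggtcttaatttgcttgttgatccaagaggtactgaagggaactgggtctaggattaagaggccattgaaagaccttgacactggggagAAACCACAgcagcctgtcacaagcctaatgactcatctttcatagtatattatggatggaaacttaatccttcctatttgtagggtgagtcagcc
TEAD, chr10:93138736-93138935 (+): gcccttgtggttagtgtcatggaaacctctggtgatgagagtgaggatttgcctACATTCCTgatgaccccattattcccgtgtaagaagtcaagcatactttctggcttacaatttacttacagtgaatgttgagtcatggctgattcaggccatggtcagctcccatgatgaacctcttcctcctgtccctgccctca
SOX, chr3:134050540-134050739 (+): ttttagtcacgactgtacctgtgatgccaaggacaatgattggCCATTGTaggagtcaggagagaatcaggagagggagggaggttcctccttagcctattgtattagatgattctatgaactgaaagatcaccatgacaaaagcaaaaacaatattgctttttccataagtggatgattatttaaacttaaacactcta

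Distances given here run from the edge of the merged region that holds the window. The first AP-1 window lay between genes, 52139 bp from the nearest start site of a protein-coding gene (Usp38, a deubiquitinase). The second lay in the transcript Gm41277, 754287 bp from Cdh10 (a cadherin), and held a RUNX match as well, printed in lower case. The first KLF window lay between genes, 48122 bp from Cylc2. The second lay in an intron of P2ry10b, 764 bp from its start site. The RUNX window was 7637 bp from Calcb and the TEAD window 21535 bp from Cdk17, and both held an AP-1 match too. The SOX window lay in the transcript Gm26691, 185491 bp from Cxxc4. All of the printed windows but the one in P2ry10b were thus over 5 kb from any protein-coding start site.

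The members were first placed among the regions they could have been. Of 36994 MEF regions without an ESC peak, 29998 had a peak on neither day, 3764 had a peak on both days, 1725 had one at day 10 and not at day 5, and 1507 were members. Members were therefore 4.07% of the MEF regions without an ESC peak. Of the 5271 such regions with a day 5 peak, 28.6% had none at day 10 (95% Wilson interval 27.4 to 29.8). Across all 36043 regions with a day 5 peak the share was 24.7%. These shares describe the calls that chose the members, and all intervals in the text cover counting error only.

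The share without a day 10 peak depended on which other lists held the region. It was 4.87% of 14791 regions open in MEFs, at day 5 and in ESCs, 23.7% of 3080 regions open at day 5 and in ESCs and not in MEFs, and 46.0% of 12901 regions open at day 5 and in neither MEFs nor ESCs. In the other direction, 31.4% of the 5489 MEF regions with a day 10 peak and no ESC peak had no day 5 peak (30.2 to 32.7). That share was 22.7% of all 35117 regions with a day 10 peak. MEF regions that appeared to leave between the days were thus about as frequent as those listed at day 10 and missing at day 5.

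Members lay on 20 chromosomes, with 117 on chromosome 1, the most, and 0 on chromosome Y. On the 19 chromosomes with at least 100 MEF and day 5 regions, the share without a day 10 peak ran from 21.3% on chromosome 11 (17.1 to 26.1) to 34.0% on chromosome 12 (27.8 to 40.9). Another member lay within 50 kb of 8.63% of members (130 of 1507) and within 10 kb of 1.33%. This spacing was not compared with that of other regions.

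The peaks of the members were weak at day 5. These values belong to the calls that chose the members and are given as a description. Each peak was ranked in its own list by the −log10 q-value the authors deposited, as a percentile. The median MEF peak of a member stood at percentile 51.2 (quartiles 27.8 and 73.7) and the median day 5 peak at percentile 22.6 (9.65 and 42.2). For the 3764 regions kept at day 10 the medians were 60.2 in MEFs and 44.0 at day 5. The MEF peak ranked higher than the day 5 peak in 75.2% of members and in 63.8% of kept regions. Ranks in MEFs and at day 5 come from separate lists of unequal length and unknown depth. They do not show whether a site became less open between MEFs and day 5. The day 5 peak was in the lowest 25% of its list for 53.9% of members (812) and in the highest 25% for 3.19% (48), against 30.0% and 19.2% of kept regions.

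The widths had the same order. A member's median peak was 703 bp wide in MEFs and 385 bp at day 5, and that of a kept region was 827 and 577 bp. The authors' fold enrichment had a median of 3.41 in MEFs and 3.31 at day 5 in members, and of 3.47 and 3.59 in kept regions. In 95.2% of members the MEF and day 5 peaks overlapped by at least 1 bp, and in 56.2% the day 5 peak lay wholly inside the MEF peak. The day 5 peak covered a median of 49.3% of the MEF peak in members and 60.7% in kept regions.

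**Figure D1:**
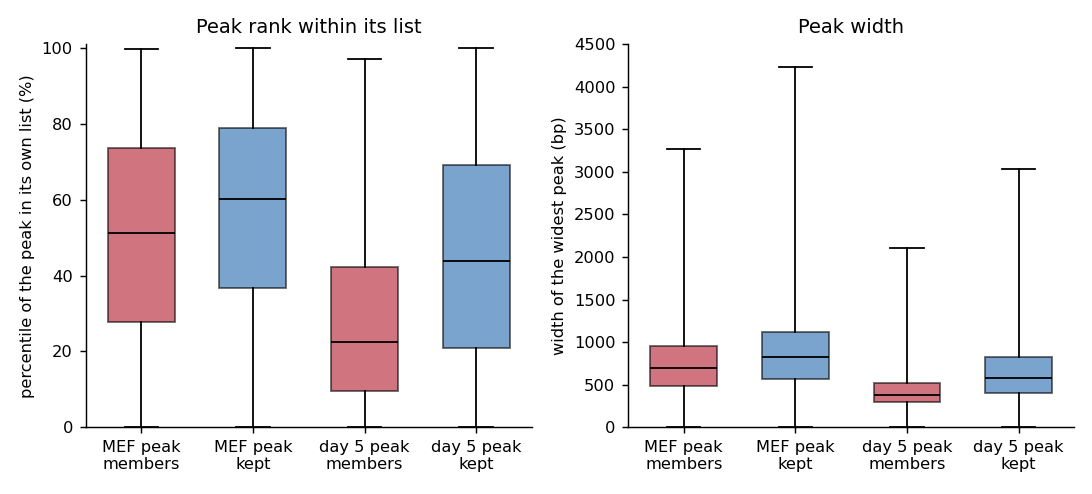
Percentile of the peak within its own list (left, %) and width of the widest peak (right, bp) for the 1507 members (red) and the 3764 regions kept at day 10 (blue). Boxes show quartiles with the median, and whiskers the lowest and highest value. The day 5 peaks of members sit lowest, with a median percentile of 22.6.

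Regions near the 400-bp limit were few. The closest day 10 peak to a member was 552 bp away and the next 594 bp, and 10 members had a day 10 peak within 1000 bp. The closest ESC peak was at 452 bp. On the other side of the limit, 3 kept regions had a day 10 peak that overlapped no MEF or day 5 peak, with gaps between 12 and 335 bp. The median distance of a member to a day 10 peak was 23046 bp and to an ESC peak 17617 bp. The choice of members therefore rested on absence over a wide stretch and seldom on the merge distance.

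Position in the genome was not used to choose the members. Members were mostly distal, and they held promoters less often than the regions kept at day 10. A start site of an annotated transcript lay inside 6.64% of members (100 of 1507, 5.49 to 8.01), against 21.1% of kept regions. The difference was −14.5 percentage points (95% Newcombe interval −16.3 to −12.6, and −16.6 to −12.2 over the 3 classes compared), and members had the lower share on 20 of 20 chromosomes. Regions with a MEF and day 10 peak and no day 5 peak resembled the kept ones, with 17.9%. MEF regions open on neither day held a start site in 3.48%, so that members were higher by 3.16 points (1.99 to 4.54). A wider region is more apt to hold a start site, and width was not matched. The median MEF peak was 827 bp wide in kept regions, 703 bp in members and 570 bp in regions open on neither day. With the higher-scoring 50% of each list alone, 647 regions met the rule. Of these, 24.3% held a start site, and the difference from kept regions was −29.6 points. It was −27.4 points with lists of equal length and −9.33 at matched GC content. Limiting the lists also dropped weaker day 10 or ESC peaks, so partly other regions met the rule, here and below. Of the 1507 members, 131 had both peaks in the upper 50% of their lists. Most of the 647 regions thus had a day 10 or ESC peak in the full lists.

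A start site was at most 5 kb away for 27.2% of members (25.02 to 29.5), 40.8% of kept regions and 36.6% of all regions of the series. The difference from kept regions was −13.6 points (−16.3 to −10.9). It was −24.0 points with the higher-scoring 50% of each list, −24.5 with lists of equal length and −8.27 at matched GC content. Against the 24.99% of MEF regions open on neither day, the difference was 2.22 points (−0.02 to 4.57), an interval that includes 0. That depended on the setting, since the interval over the 3 classes excluded 0 with the higher-scoring 50% of each list (12.6 points), with lists of equal length (4.96), within 1 kb (2.88) and for protein-coding start sites (2.26). The median distance to a start site was 13047 bp in members, 8020 bp in kept regions and 13861 bp in MEF regions open on neither day. By annotation 14.9% of members touched an exon, 43.3% lay in a gene without touching an exon and 41.7% lay between genes.

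The share without a day 10 peak rose with the distance to a start site. Among MEF and day 5 regions without an ESC peak it was 11.2% for those holding a start site (9.27 to 13.4), 29.5% within 5 kb, 31.6% between 5 and 50 kb and 39.4% beyond 50 kb (35.6 to 43.3). Among the regions that ESCs shared, it was 1.89%, 13.0%, 14.8% and 16.1%. The rank of the day 5 peak, a value of the rule's own lists, separated regions further. From the lowest to the highest 20% of the day 5 list, the share fell from 43.3% to 33.3%, 25.6%, 13.9% and 4.71%. Over 5 kb from any start site the same steps gave 50.9%, 39.3%, 32.3%, 16.5% and 5.32%. When kept regions were weighted to the members' day 5 percentiles, the difference in regions holding a start site was −17.8 points, and when weighted to their GC content it was −9.33.

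**Figure D2:**
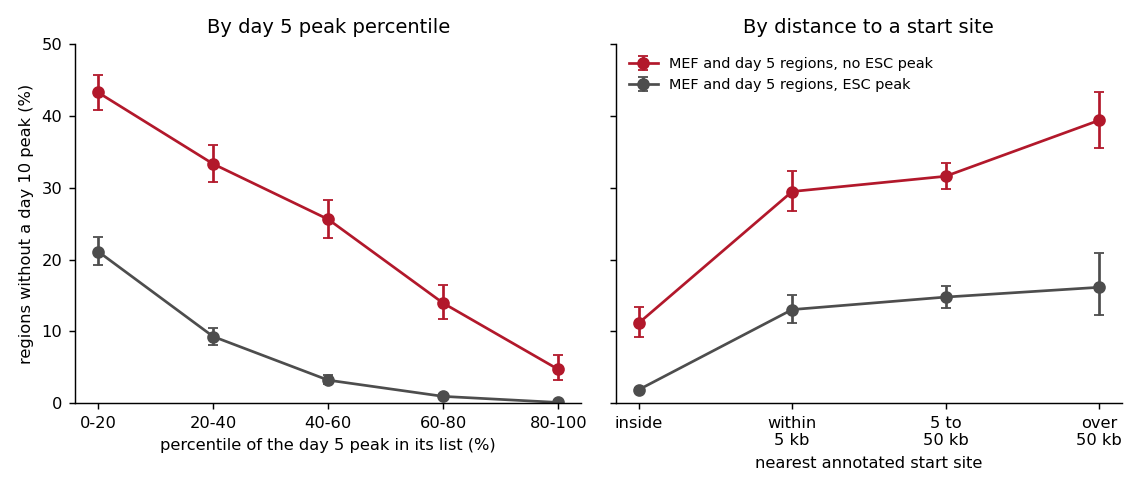
Share of regions with a MEF and a day 5 peak that had no day 10 peak (%), by percentile of the day 5 peak (left) and by distance to the nearest start site (right), for regions without (red) and with (grey) an ESC peak. Bars are 95% Wilson intervals. The red share falls from 43.3% to 4.71% with the day 5 percentile and rises from 11.2% to 39.4% with distance.

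Sequence was not used by the rule either. Matches to 17 motifs, listed with the methods, were counted in windows of 200 bp centred on the widest MEF peak, a peak that every class compared has. AP-1 was by far the most frequent. A TGACTCA string, or TGAGTCA on the other strand, stood in 24.6% of members (371 of 1507, 22.5 to 26.9), in 3.55% of the windows 1 kb to either side and in 11.4% of windows over all regions of the series. Among all 8133 distinct 7-base words in these windows, with strands pooled, TGACTCA also had the largest excess over the flanks, at 21.1 points. In 61 members the window held at least 2 AP-1 matches. The AP-1 share in 50-bp bins peaked at 7.96% next to the midpoint and was 1.06% at the far left edge, 1 kb away.

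**Figure D3:**
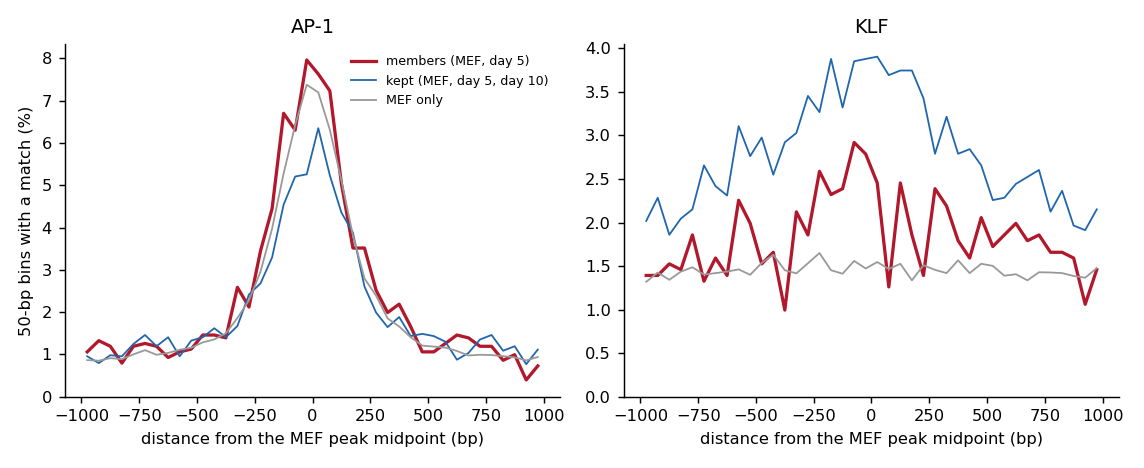
Share of 50-bp bins with an AP-1 (left) or KLF (right) match (%) by distance from the midpoint of the widest MEF peak (bp), for members (red), regions kept at day 10 (blue) and MEF regions open on neither day (grey). The AP-1 line of members reaches 7.96% at the midpoint, and their KLF line, which is noisy, reaches 2.92%.

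RUNX matches stood in 5.91% of members and 2.19% of their flanks, TEAD matches in 7.37% and 3.82%, KLF matches in 8.49% and 4.91%, and SOX matches in 8.83% and 7.66%. The CTCF motif, that of the insulator protein, was rare and concentrated, with 1.66% against 0.0664% (25 members against 2 of 3014 flank windows). Matches of the octamer bound by OCT4 were in 1.26% of members and 0.962% of flanks, and FOX matches in 2.39% and 3.15%. No match to any of the 17 motifs was found in 47.5% of members (715).

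Against the regions kept at day 10, members had more AP-1 and fewer KLF matches. AP-1 stood in 24.6% of members and 19.5% of kept regions, a difference of 5.14 points (2.67 to 7.70), which was positive on 17 of 20 chromosomes. KLF stood in 8.49% and 13.4%, a difference of −4.92 points (−6.65 to −3.08), negative on 18 of 20. RUNX was higher by 2.08 points (0.812 to 3.50), and TFAP2 was lower, at 4.51% against 7.33% (−4.10 to −1.41). Over all 51 differences computed, with intervals at the 99.90% level, these 4 intervals still excluded 0. The RUNX interval did so by little, with a lower bound of 0.0131, and included 0 in 10 of 16 alternative settings. The AP-1 difference was larger with lists of equal length (10.02 points), with the higher-scoring 50% of each list (8.90), at matched day 5 percentile (8.26) and in 400-bp windows (8.24). The KLF difference was larger with lists of equal length (−9.13 points), in 400-bp windows (−8.14) and over whole regions (−19.5). Whole regions differed in width as well, with a median MEF peak of 703 bp in members and 827 bp in kept regions. The difference in regions holding a start site also grew with lists of equal length (−27.4 points) and with the higher-scoring 50% (−29.6), from −14.5. Motif shares were not matched for position in those settings. SOX (−2.12 to 1.30), TEAD (−0.615 to 2.47) and octamer (−0.742 to 0.652) differences included 0 at the 95% level.

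The differences from kept regions moved with promoters and with base composition. The median GC content of the windows was 44.0% in members and 47.5% in kept regions, and in regions holding a start site it was 52.3% and 57.0%. Over 5 kb from any start site, AP-1 stood in 26.3% of 1097 members and 24.4% of 2227 kept regions, a difference of 1.92 points (−1.20 to 5.12). KLF stood there in 8.20% and 9.92% (difference −3.70 to 0.407). With kept regions weighted to the members' GC content, the differences were 3.58 points for AP-1 (−0.777 to 7.93 at the level for all 51) and −1.39 for KLF (−4.12 to 1.35), and those for RUNX and TFAP2 were 1.31 and −0.474 points, with intervals that included 0. Over 5 kb from a start site the RUNX and TFAP2 differences were 1.44 and −1.06 points, also with intervals that included 0. Among distal regions the AP-1 and KLF differences from kept regions were thus not distinguishable from 0 at the 95% level. At matched GC content this held at the wider level for all 51, and no 95% interval was computed there.

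**Figure D4:**
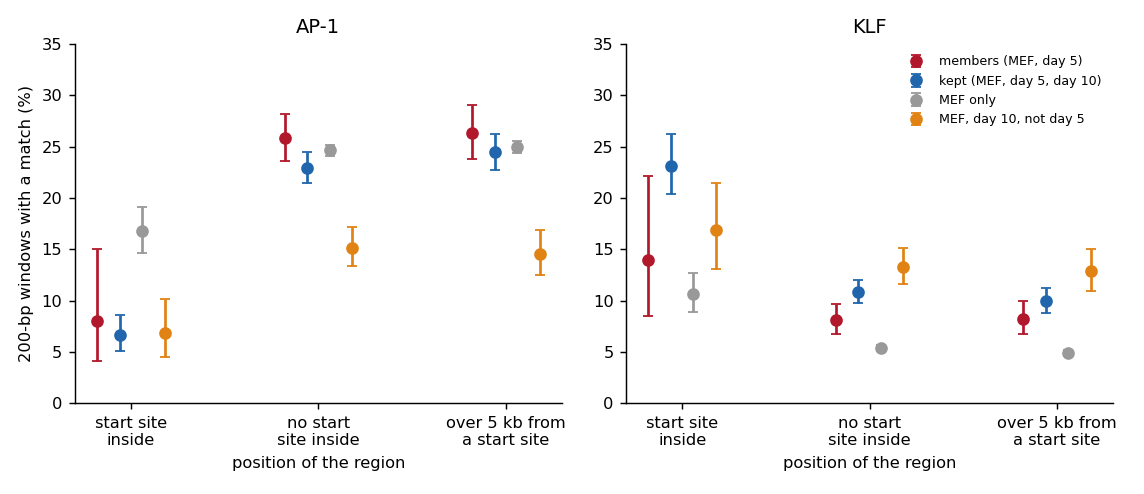
Share of 200-bp windows with an AP-1 (left) or KLF (right) match (%) by position of the region, for members (red), regions kept at day 10 (blue), MEF regions open on neither day (grey) and MEF regions with a day 10 and no day 5 peak (orange). Bars are 95% Wilson intervals. Over 5 kb from a start site, members had AP-1 in 26.3% and kept regions in 24.4%, with intervals that overlap.

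GC content itself ordered the regions. Among MEF and day 5 regions without an ESC peak, the share without a day 10 peak fell over 5 equal groups of rising GC content from 38.7% to 36.0%, 28.7%, 24.9% and 16.3%. Over 5 kb from any start site it was 39.9%, 37.6%, 30.6%, 27.2% and 25.6%. The order was thus the same away from promoters. Among 7-base words, CCCGCCC was the one most reduced relative to kept regions, with 2.59% of members and 6.75% of kept regions. A motif match went with the same order. The share without a day 10 peak was 33.6% of regions with an AP-1 match (30.9 to 36.4) and 27.3% of those without, and 20.2% of regions with a KLF match (17.3 to 23.5) and 29.7% of those without. It was 38.2% of the 233 regions with a RUNX match (32.2 to 44.6).

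Against MEF regions open on neither day, the AP-1 share did not differ beyond counting error. It was 24.6% in members and 24.4% in those 29998 regions, a difference of 0.267 points (−1.90 to 2.56). KLF was higher in members by 2.92 points (1.59 to 4.46) and higher on 18 of 20 chromosomes, and SOX by 2.55 points (1.19 to 4.11). Both intervals excluded 0 at the level for all 51 differences too. The KLF difference was 3.28 points over 5 kb from a start site and 2.95 at matched GC content, and the SOX difference 3.11 and 2.54, each with an interval for all 51 that excluded 0. TEAD was lower by 1.70 points (−2.96 to −0.236), an interval that included 0 at that level. With lists of equal length, however, the differences were 2.23 points for KLF and 2.12 for SOX, and both of these intervals included 0. Over the whole merged region the AP-1 difference was 8.55 points, where the median MEF peak was 703 bp wide in members and 570 bp in the regions open on neither day.

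Against the 1725 MEF regions with a day 10 and no day 5 peak, members had more AP-1 (13.7% in those regions, a difference of 10.9 points, 8.23 to 13.7) and RUNX (by 3.30 points). They had fewer KLF (a difference of −5.42 points, −7.57 to −3.25), TFAP2 (−4.53 points) and CTCF matches (1.66% against 3.71%). Median GC content in those regions was 50.5%, and at matched GC content the differences were −0.323 points for KLF (−3.44 to 2.79), −1.46 for TFAP2 (−4.03 to 1.12) and −1.59 for CTCF (−3.64 to 0.464), all at the level for all 51. Over 5 kb from a start site AP-1 stood in 26.3% of members and 14.5% of those regions. The RUNX (2.82 points), TFAP2 (−2.46) and CTCF (−2.25) intervals included 0 there at that level. The CTCF interval included 0 in 5 of 14 alternative settings. With the higher-scoring 50% of each list the CTCF difference reversed, to 1.72 points.

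**Figure D5:**
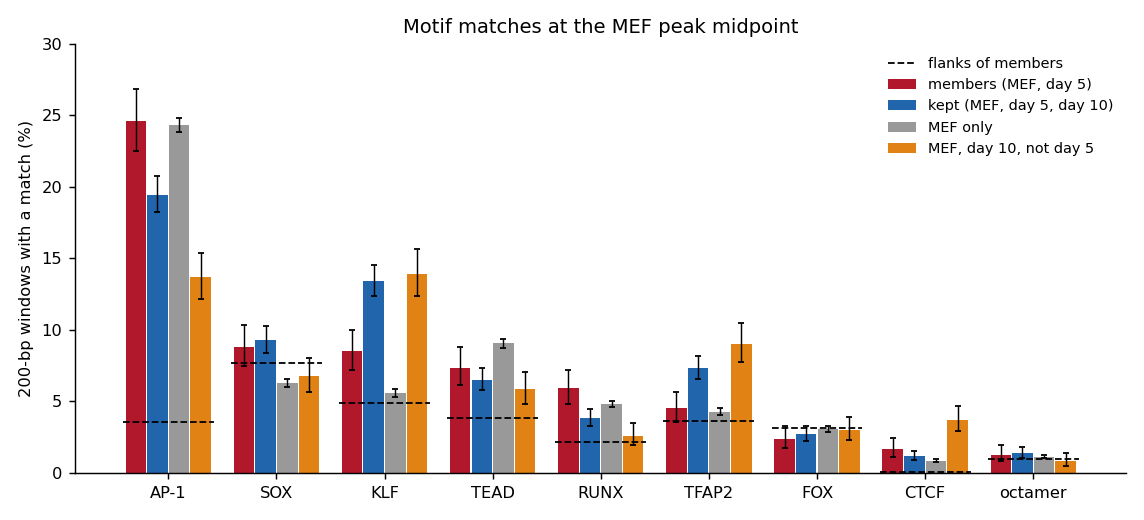
Share of 200-bp windows with a match (%) to each of 9 motifs, for members (red), regions kept at day 10 (blue), MEF regions open on neither day (grey) and MEF regions with a day 10 and no day 5 peak (orange). Bars carry 95% Wilson intervals, and dashed lines give the windows 1 kb to each side of members. AP-1 in members stands at 24.6% against 3.55% in flanks.

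The 10 members with the highest ranks in both lists, chosen by the smaller of the 2 percentiles, were strong sites in MEFs and at day 5. The highest was chr16:45110506-45111441, in an intron of Ccdc80, which encodes a secreted matrix-binding protein. Its peak had a fold enrichment of 6.22 in MEFs (percentile 98.2) and 5.15 at day 5 (percentile 84.3), and the nearest day 10 peak was 16059 bp away. An intron of Mmp16, a membrane-bound matrix metalloproteinase, held chr4:17894087-17894939, with 4.91-fold enrichment in MEFs and 5.98-fold at day 5. An intron of Adgrl3, an adhesion receptor, held chr5:81781593-81782460, with 4.67-fold and 5.21-fold enrichment and an AP-1 match. The region chr10:93138332-93139340, between genes and 21535 bp from Cdk17, held AP-1, TEAD and RUNX matches in 1 window, with percentiles of 98.0 and 74.3.

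The other members of this group were found at promoters, in noncoding transcripts or between genes. The region chr8:80961842-80962774 near Usp38 had 5.39-fold enrichment in MEFs and 5.10-fold at day 5. The region chr15:18063953-18064660, the one with AP-1 and RUNX matches printed above, had 5.13-fold and 5.33-fold. The region chr10:119111636-119112195 overlapped an exon of the transcript Gm47480 and had an AP-1 match. The region chr7:145106116-145107739, between genes, had its nearest day 10 peak at 2986 bp. The remaining regions held start sites. They were chr13:54371275-54372026 at Cplx2, which regulates vesicle fusion at synapses, with percentiles of 89.5 and 82.7, and chr8:3493131-3493872 at Zfp358, a zinc finger gene. Of these 10 members 5 had an AP-1 match in the window, beside 24.6% of all members. With only 10 members, chosen by peak rank, no enrichment can be read from this count.

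The 3 widest members lay in introns. They were a 3671-bp region of Pcdh19 (a protocadherin), a 3272-bp region of Creb3l2 (a transcription factor of the secretory pathway) and a 3047-bp region of Tbl1x (a subunit of a corepressor complex). Their day 5 peaks were at percentiles 15.8, 11.3 and 28.6. Within 1 kb of a protein-coding start site lay 105 members, 6.97%. The 5 with the highest ranks were at Cplx2, Zfp358, P2ry10b, Sh3glb2 and Mrps10, with day 5 percentiles of 82.7, 77.1, 73.6, 59.7 and 59.4. None of these 5 windows had an AP-1 match, and 2 had a KLF match, those at P2ry10b and Sh3glb2.

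Genes were then taken from 11 lists, of 323 genes in all. A member lay within 50 kb of a start site for 1652 of 21938 protein-coding genes, 7.53%, and for 52 of the 323, 16.1%. Members near these genes numbered 54. Because genes differ in how many open regions surround them, the share lost of all MEF and day 5 regions around a list is given beside the count. Around all protein-coding genes that share was 25.03% (23.7 to 26.5).

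The lists with the highest shares of genes near a member were the TEAD-YAP pathway, the TGF-beta pathway and the actin and contractile genes. Their shares of regions lost had intervals that included 25.03%. The TGF-beta pathway, which holds cells in a mesenchymal state, had a member near 9 of 30 genes (30.0%, 16.7 to 47.9), and 25.8% of its 31 regions were lost. Tgfbr1, a receptor of the pathway, had a member 41915 bp upstream at MEF percentile 88.0 and day 5 percentile 16.6. That member lay in another gene, Col15a1, over 302 bp of exon. Acvr1 and Bmpr2, which encode receptors for activins and BMPs, had members at day 5 percentiles 23.5 and 15.0. A single member lay within 50 kb of both Smad5 and Tgfbi, at day 5 percentile 56.8. Another, 27786 bp from Tgif1, a repressor of the pathway, lay wholly in exon sequence of Dlgap1. The TEAD-YAP list had a member near 8 of 26 genes (30.8%, 16.5 to 50.0), with 27.6% of 29 regions lost. They included Yap1 itself, whose member lay in the gene at MEF percentile 20.2 and day 5 percentile 37.4, Tead4, Vgll3, Ptpn14, Sav1 and Stk3. The member near Ptpn14 lay in Smyd2, over 188 bp of exon. The member in Stk3, a Hippo kinase, stood at percentile 88.9 in MEFs and 3.16 at day 5.

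The actin and contractile list had a member near 10 of 38 genes (26.3%, 15.0 to 42.01), with 28.9% of 38 regions lost. Actn1, an actin cross-linker, had 2 members and 0 kept regions within 50 kb, and the stronger was at day 5 percentile 58.5 with an AP-1 match. Pdlim5 had 2 members too, and Actg1, Zyx and the SRF coactivator genes Mrtfa and Mrtfb had 1 each. Collagens and matrix had a member near 9 of 40 genes (22.5%, 12.3 to 37.5), with 23.1% of 39 regions lost. Col12a1 had a member in the gene, over 126 bp of exon, with an AP-1 match at day 5 percentile 44.0, and the collagen-modifying enzyme gene Plod2 had 2. The member in Dcn, the proteoglycan decorin, was also within 50 kb of Lum and was weak in both lists, at percentiles 17.3 and 7.999. Lox and Timp3 had 1 each, the one near Timp3 lying in Syn3.

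The list of receptor tyrosine kinases, which also holds the growth factor gene Igf1, had a member near 5 of 28 genes (17.9%, 7.88 to 35.6). Of its 17 regions 35.3% were lost. The Fgfr1 member, 47357 bp upstream, stood at MEF percentile 96.6 and day 5 percentile 53.7, with a day 10 peak at 1680 bp, and Met, the receptor of hepatocyte growth factor, had 2 members. Ddr1, Igf1 and Fgfr2 had 1 each, those at Igf1 and Fgfr2 with an AP-1 match. The AP-1 family itself had a member near 4 of 18 genes (22.2%, 9.001 to 45.2), Fosb, Batf3, Fosl2 and Atf3, with day 5 percentiles of 38.2, 10.9, 3.83 and 1.85 and 23.5% of 17 regions lost. The member near Batf3 lay in Tatdn3, over 382 bp of exon. The genes of the epithelial-mesenchymal transition had one near 3 of 16 (18.8%), with 19.05% of 21 regions lost. Vim, which encodes the intermediate filament vimentin, had a member 4096 bp from a start site at percentiles 85.8 and 60.8. Zeb2, a repressor of epithelial genes, had one 30940 bp upstream with AP-1 and SOX matches, and Cdh2 (N-cadherin) had 2 and 0 kept regions.

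Senescence and p53 genes had a member near 3 of 30 (10.0%, 3.46 to 25.6), Cxcl1, Mdm2 and Gadd45a, with 16.7% of 18 regions lost. Epithelial junction genes had 1 of 28, Pkp2 (a desmosome plakophilin). Pluripotency genes had 0 of 34, which allows up to 8.82% (3 counts of 34, the limit used here for a count of 0). That limit lies above the 7.53% of all protein-coding genes. Only 5 MEF and day 5 regions lay within 50 kb of pluripotency genes. At 100 kb 4 of the 34 had a member (11.8%, against 12.9% of all genes). Fibroblast transcription factors also had 0 of 36, which allows up to 8.33%, again above the 7.53% of all genes. Within 50 kb of them lay 24 kept regions. So 0 of 24 MEF and day 5 regions near these factors were lost, which allows up to 12.5% by the same limit, against 25.03% near all genes. At 100 kb 4 of 39 were lost (10.3%, 4.06 to 23.6, against 25.9%). Over gene bodies and 5 kb before them 2 of 20 were (10.0%, 2.79 to 30.1), an interval that includes the 24.94% around all genes. For the other 10 lists the 95% Wilson interval of the share lost within 50 kb included 25.03%. No interval or limit was widened for the 11 lists and the windows compared. Regions near a list were not matched to those near all genes for start sites, GC content or day 5 rank. The lower share near fibroblast transcription factors is therefore only a description.

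Members seldom gathered at 1 gene. Over gene bodies with 50 kb to each side, the most were 4, at Triobp (an actin-binding protein) and at Pde4d (a cAMP phosphodiesterase). The Triobp neighbourhood also held 3 kept regions and 1 MEF region open on neither day, and the much longer Pde4d held 4 and 28. Nol12, next to Triobp, had 3 over an overlapping stretch. Rps6kl1 and its neighbour Dlst, Wdr25, Crim1 (a transmembrane protein that binds BMPs), Tbxas1 (thromboxane synthase), Cdh2 and Plce1 (a phospholipase C) had 3 each. Rps6kl1, Dlst, Wdr25, Crim1 and Cdh2 had 0 kept regions, while MEF regions open on neither day numbered between 4 and 7 at each of them.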

How the data were processed

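Open chromatin was profiled by ATAC-seq in 8 libraries of 4 groups. Per the labels and the methods, the authors mapped reads to mm10 with Bowtie2 (version 2.2.0 in the submitters' processing notes), filtered on mapping quality and unique placement, and discarded mitochondrial reads. The peak caller, and whether read ends were shifted for the transposase, are not given in the sources used here. The authors deposited 1 peak list per group without a header, in a broad-peak layout, in which each peak has a score, a ratio named fold enrichment, and −log10 p- and q-values. The list and peak names are those of an intersection, so an interval may be the part of a peak of 1 replicate that the other replicate covered, while the score and ratio belong to the whole peak. The authors' −log10 q-value ranked peaks within a list. Depth is not known from such lists, and 0 columns belonged to other series.

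Peaks within 400 bp were merged (Python 3.11.15, numpy 2.4.6, scipy 1.17.1). Start sites and exons came from GENCODE mouse release 21 and sequence from GRCm38. Regions are not replicates, so shares carry 95% Wilson intervals, differences Newcombe intervals and a Bonferroni interval over the 51 motif differences or the 3 classes, and no p-value was computed. The differences at matched GC content or percentile were instead weighted over quintile groups cut on the pooled classes, with normal-approximation intervals. Regions within a group were not matched further. Merging, classes and motif search were tested on simulated data, and the Wilson and Newcombe intervals against a separate implementation. Chromosome counts used those with at least 20 members.

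Motifs were searched on both strands: AP-1 TGACTCA; CRE TGACGTCA; octamer ATGCAAAT; SOX CCATTGT and CCTTTGT; KLF CCACACCC, CCACGCCC, CCCCACCC and CCCCGCCC; ESRRB TCAAGGTCA; TEAD ACATTCCA, ACATTCCT, GCATTCCA and GCATTCCT; RUNX TGTGGTTA and TGTGGTTT; C/EBP TTGCACAA and TTGCGCAA; ETS CCGGAAGT; FOX TGTTTAC; PBX-HOX TGATTGAT; TFAP2 GCCNNNGGC; and CTCF, SRF, MEF2 and NFI by their consensus. No string lay inside that of another motif (0 pairs). A match is not evidence of binding. Over all regions of the series, a match was found in 11.4% for AP-1, 11.1% for KLF, 10.1% for SOX, 7.19% for TFAP2, 6.83% for TEAD, 3.11% for RUNX, 2.96% for FOX, 2.19% for octamer and 1.12% for CTCF.

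The members, motifs and gene lists were chosen with earlier results of these data known. Regions named were the 10 members with the highest smaller percentile of the 2 lists, the 3 widest and the 5 highest within 1 kb of a protein-coding start site. Genes named were the 10 with the most members and, per list, up to 6 with a member within 50 kb. Sequences came from up to 2 members per motif by the same rank, with windows under 50% repeat-masked.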

Additional observations from a re-analysis of the deposited data

How the results depend on the processing

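No paired analysis was possible because the 2 libraries of each group were deposited as 1 list, and leaving out each replicate was not run for the same reason. Of 132 alternative values of the main differences, 115 kept their direction and whether their interval excluded 0. These include cases where both intervals included 0, for AP-1 and for the share near a start site, each minus MEF regions open on neither day. In 4 others the AP-1 difference from MEF regions open on neither day, 0.267 points, changed sign with an interval that still included 0, at −3.75 (higher-scoring 50%), −1.62 (equal lists), −0.662 (widest peak of any list) and −1.69 points (matched MEF percentile). With the higher-scoring 50% of each list, 647 regions met the rule (25.4% without a day 10 peak). With every list limited to its 35226 best peaks, 990 did (19.8%). Most of the 647 had a day 10 or ESC peak in the full lists, so they are not the strongest members. With these limited lists, the share near a start site, members minus MEF regions open on neither day, excluded 0 at 12.6 and 4.96 points. It also did so at 2.88 points within 1 kb and 2.26 points for protein-coding start sites. In the whole region, members exceeded those regions in AP-1 by 8.55 points. With equal lists the KLF difference from them was 2.23 points and included 0. At the 99.90% level, the AP-1 difference from kept regions included 0 over 5 kb from a start site (1.92 points) and, in settings chosen after seeing the data, for regions holding no start site (2.90) and at matched GC content (3.58). The KLF difference did so at −1.72, −2.71 and −1.39 points. For regions holding no start site both 95% intervals excluded 0 (0.193 to 5.67 for AP-1 and −4.47 to −0.834 for KLF). The KLF difference from MEF regions with a day 10 and no day 5 peak included 0 at matched GC content (−0.323 points). The CTCF difference from the latter regions reversed, to 1.72 points, with the higher-scoring 50%. Counting gene bodies with 5 kb before them, 26 genes of the lists had a member in place of 52. The causes were not tested. Unknown depth limits every absence of a peak.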
